A study of Rattus norvegicus with 9 samples.

Results

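The genes described here are 9 that interferons induce or that serve antigen presentation: Ifitm2, Ifitm3, Irf1, B2m, Cd74, Tap1, Psmb8, Psmb9 and Mx1. They were listed by name, with earlier results of these data known. A probe set was taken as theirs where the array platform's annotation gave it that symbol and no other. All 9 genes were found, with 11 probe sets, of the 10411 genes and 12783 probe sets that carry 1 symbol on the array. Prefrontal cortex (the frontal areas Fr1 and Fr2, dissected without the olfactory bulb) was taken from 9 male Lewis rats, an inbred strain, of the study's experiment 1, and each rat had 1 Affymetrix array. No treatment was given, the rats form 1 group, and they were killed 12 days after the last behavioural test. Their ages are not given in the labels, and the animals were housed singly. The labels give every rat 4 behavioural values, for sugar feeding, plus maze, locomotion and startle, without units, and the study asked how mRNA levels in the brain relate to behaviour among inbred animals. The series design names 3 tests and leaves out the plus maze.

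Interferons are cytokines of antiviral defence. They bind receptors at the cell surface, which signal through JAK kinases to STAT proteins, and these switch on many target genes through short promoter elements. Among the products, IFITM proteins sit in membranes and hinder the entry of viruses, Mx1 is an antiviral GTPase, and Irf1 is a transcription factor that relays the response. Presentation by MHC class I uses B2m, the light chain of the class I molecule. It also uses Tap1, a subunit of the transporter that brings peptides into the endoplasmic reticulum. Psmb8 and Psmb9 are among the catalytic subunits that turn the standard proteasome into the immunoproteasome. Cd74, the invariant chain, accompanies MHC class II molecules in antigen-presenting cells. In healthy brain most of these genes are known to be low in neurons, and microglia and vascular cells carry much of what there is.

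The promoters of the 3 genes on which the results below turn are shown with the elements through which interferons are known to act. In RefSeq promoters of the rat build GRCr8, all 9 genes had a window of 250 bases before to 50 bases after the gene's start. Capitals mark matches on either strand to GAAANNGAA, the core of the interferon-stimulated response element, and to TTCNNNGAA, the core of the gamma-activated site.
Ifitm3, minus strand of chr1:205541709-205542008: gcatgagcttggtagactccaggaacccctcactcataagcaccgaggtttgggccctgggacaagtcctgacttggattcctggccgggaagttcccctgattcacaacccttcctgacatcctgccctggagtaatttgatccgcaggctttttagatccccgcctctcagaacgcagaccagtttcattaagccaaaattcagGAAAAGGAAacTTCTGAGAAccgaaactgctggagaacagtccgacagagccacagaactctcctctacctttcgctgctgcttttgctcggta
Ifitm2, minus strand of chr1:205482299-205482598: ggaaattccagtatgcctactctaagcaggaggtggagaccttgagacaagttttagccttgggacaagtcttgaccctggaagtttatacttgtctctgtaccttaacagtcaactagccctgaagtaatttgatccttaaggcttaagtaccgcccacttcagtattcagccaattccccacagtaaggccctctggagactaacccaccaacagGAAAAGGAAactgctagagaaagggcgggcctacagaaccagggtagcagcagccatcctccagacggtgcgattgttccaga
B2m, plus strand of chr3:129549080-129549379: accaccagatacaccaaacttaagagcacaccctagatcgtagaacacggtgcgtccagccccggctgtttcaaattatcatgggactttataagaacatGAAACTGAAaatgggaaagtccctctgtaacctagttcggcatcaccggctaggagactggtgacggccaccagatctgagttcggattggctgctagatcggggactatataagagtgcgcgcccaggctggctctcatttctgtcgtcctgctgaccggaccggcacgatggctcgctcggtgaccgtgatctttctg

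In Ifitm3 the first core, GAAAAGGAA, lies at -44 to -36 and the second, TTCTGAGAA, at -33 to -25, counted in bases from the gene's start on its own strand. Ifitm2, a neighbour of the same gene cluster on chromosome 1 with Ifitm1 between them, carries the identical core GAAAAGGAA at -33 to -25. In B2m the match GAAACTGAA lies at -150 to -142. Among the 9 genes, 5 had the response element core (B2m, Ifitm2, Ifitm3, Psmb8 and Tap1), 3 had the gamma-activated core (Ifitm3, Irf1 and Psmb8) and 3 had neither (Cd74, Mx1 and Psmb9). Over all 33469 promoters of this length, 9.71% held the first and 8.87% the second, on either strand. A match is a run of letters and not a shown binding site. Psmb8, Tap1 and Psmb9 lie next to each other on chromosome 20, where the windows of Tap1 and Psmb9 overlap.

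Of the neuron markers on the array, 9 of 9 were above the filter on low values, with a mean log2 value of 10.1 to 10.6 per rat. They mark neurons and not this cortical area, and of the projection neuron markers on the array Cux2 was above the filter (mean 6.82) and Tbr1 below it (mean 2.51). That filter left out the lowest 40% of probe sets by mean over the 9 arrays, below a log2 value of 3.22, and kept 9520 of 15866. Medians of the 9 arrays lay between 4.11 and 4.28. The arrays of rats 8 and 9 stand apart from the rest: both were beyond the other 7 on the same side in 26.9% of the probe sets kept. None of the 5 probe sets of the interferon and antigen presentation genes that were kept did this, and neither did any of the 6 left out.

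Ifitm3 and Ifitm2 were highest in the same 2 rats. Ifitm3 ran from a log2 value of 4.18 in rat 7 to 5.30 in rat 2, with a median of 4.44 and a mean of 4.58 ± 0.37 (SD, n = 9), and the lowest and highest rats were 2.17-fold apart. That spread was larger than the SD of 87.7% of the probe sets kept. In rats 2 and 6 it was 5.30 and 5.09, against 4.18 to 4.58 in the other 7. Ifitm2 ran from 4.33 in rat 9 to 4.91 in rat 6, with a median of 4.51 and a mean of 4.56 ± 0.18 (SD, n = 9), a 1.49-fold span. Its values were 4.79 and 4.91 in rats 2 and 6, against 4.33 to 4.55 in the other 7, so neither gene's values overlapped between these rats and the rest. Of all 9520 probe sets kept, 336 (3.53%) had rats 2 and 6 both above the other 7. In earlier results of these data both genes had already stood out for the plus maze, where these rats had the top values. The Ifitm2 values of rats 1, 4, 7 and 8 all lay at 4.51. The IFITM genes are a family of similar sequence, and whether either probe set also binds RNA of another member was not tested. In a piece of whole tissue, fewer cells of a type and less RNA per cell cannot be told apart, here and in every result that follows.

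**Figure D1:**
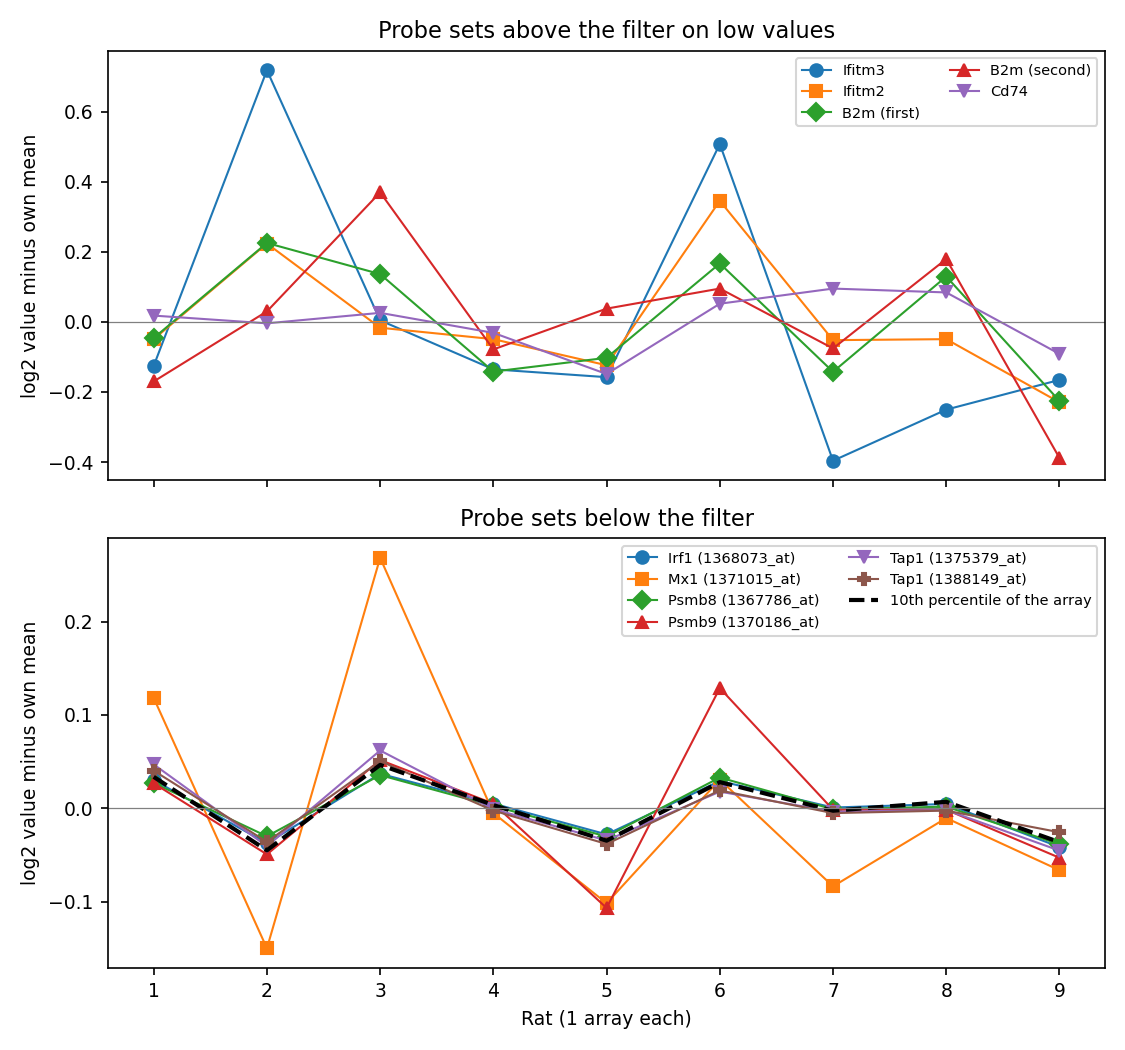
Log2 value of each probe set minus its own mean over the 9 rats (y axis, log2 units) by rat (x axis), with probe sets above the filter on low values in the upper panel and those below it in the lower panel. Ifitm3 and Ifitm2 stand out in rats 2 and 6, while 4 of the 6 probe sets in the lower panel run along the dashed 10th percentile of each array, with Mx1 and Psmb9 swinging more widely.

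B2m, the class I light chain, was measured by 2 probe sets that differed in which rat was highest. The first has the suffix s_at, which Affymetrix gives to sets whose probes match more than 1 transcript. It ran from 9.85 in rat 9 to 10.30 in rat 2, with a median of 10.03 and a mean of 10.08 ± 0.17 (SD, n = 9). Its values in rats 2 and 6 were 10.30 and 10.24, above the other 7 at 9.85 to 10.21, though rats 3 and 8 came close at 10.21 each. The second B2m probe set ran from 7.61 in rat 9 to 8.37 in rat 3, with a mean of 8.00 ± 0.22 (SD, n = 9). Here rats 2 and 6, at 8.03 and 8.10, lay inside the range of the other 7, from 7.61 to 8.37. Across rats the 2 probe sets correlated with r = 0.737 and rho = 0.65 (exact permutation p = 0.0177 for r and 0.0666 for rho). Without rats 2 and 6, which lie most distant from that first set's median, r was 0.877, and in the 7 rats other than 8 and 9 it was 0.583.

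Cd74, the class II invariant chain, was just above the filter and nearly level. Its log2 value ran from 3.42 in rat 5 to 3.66 in rat 7, with a median of 3.58 and a mean of 3.56 ± 0.08 (SD, n = 9), a 1.18-fold span. Only 10.1% of the probe sets kept had a smaller SD. The values of rats 2 and 6, at 3.56 and 3.62, lay within the other 7, from 3.42 to 3.66.

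Both Tap1 probe sets and those of Irf1, Psmb8, Psmb9 and Mx1 were below the filter. Irf1 ran from 2.28 to 2.36, Psmb8 from 2.03 to 2.10, Psmb9 from 2.51 to 2.75 and the Tap1 probe sets from 2.40 to 2.51 and from 2.05 to 2.14. Mx1 had a wider range, from 2.25 in rat 2 to 2.67 in rat 3, and its SD of 0.13 was above that of 90.3% of the probe sets left out. The 6 probe sets followed the low end of each array. Against the 10th percentile of the array, which lay between 2.12 and 2.21, the 6 probe sets had r from 0.828 to 0.989 (exact permutation p from 3.86e-05 to 0.00396) and rho from 0.854 to 0.967 (exact permutation p from 0.000165 to 0.0052). Without rats 2 and 3, whose percentiles are most distant from the median, r was 0.852 to 0.989, and in the 7 rats other than 8 and 9 it was 0.814 to 0.997. The median r over all 6346 probe sets left out was 0.941. The same correlation was -0.122 for Ifitm3, 0.203 for Ifitm2, 0.272 and 0.470 for the 2 B2m probe sets and 0.576 for Cd74. For the 5 genes below the filter, differences between rats are therefore not read as differences in expression here.

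Against the plus maze, Ifitm3, Ifitm2 and B2m had positive slopes at an unadjusted limma p under 0.05, and none passed after adjustment over the 9520 probe sets. Rats 2 and 6 had the highest plus maze values, 18.7 each, against 0 to 9 in the other 7. Ifitm3 averaged 5.19 in rats 2 and 6 and 4.40 ± 0.12 in the other 7 (SD, n = 7), a difference of 0.79 on the log2 scale or 1.73-fold. For Ifitm2 the averages were 4.85 in rats 2 and 6 and 4.48 ± 0.07 in the other 7 (SD, n = 7), a difference of 0.37 or 1.29-fold. For the first B2m probe set they were 10.27 in rats 2 and 6 and 10.02 ± 0.14 in the other 7 (SD, n = 7), a difference of 0.25 or 1.19-fold. Rats 2 and 6 were thus both above all others in 3 of the 5 probe sets kept, and 336 of all 9520 (3.53%) showed the same order. Ifitm3 and Ifitm2 had already stood out in earlier results of these data for this measure, so this count is not separate evidence.

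The slope is the change in log2 value per SD of the behaviour over the 9 rats. For Ifitm3 against the plus maze it was 0.32 ± 0.067 (SE), with adjusted p = 0.999 (limma). The correlation was r = 0.861 and rho = 0.546 (exact permutation p = 0.0176 for r and 0.133 for rho). Without rats 2 and 6, the most distant from the median plus maze value, r was -0.136 (exact permutation p = 0.777), so the relation rested on those rats. The Ifitm2 slope was 0.16 ± 0.036 (SE), with adjusted p = 0.999 (limma). Its r was 0.900 and rho 0.658 (exact permutation p = 0.00556 for r and 0.0614 for rho), and without rats 2 and 6 r was 0.373 (exact permutation p = 0.376). The slope of the first B2m probe set was 0.11 ± 0.048 (SE), with adjusted p = 0.999 (limma). Its r was 0.682 and rho 0.664 (exact permutation p = 0.0436 for r and 0.0587 for rho), and r was 0.211 (exact permutation p = 0.668) without rats 2 and 6. In the 7 rats other than 8 and 9, r was 0.880 for Ifitm3, 0.896 for Ifitm2 and 0.685 for the first B2m probe set. The other kept probe sets had slopes of 0.026 (second B2m probe set) and 0.021 (Cd74).

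Of all 9520 probe sets, 0% passed the adjusted threshold for the plus maze, 2.45% had a positive and 0.546% a negative slope at an unadjusted p under 0.05. The 3 of 5 probe sets with positive slopes at that threshold stand against the 2.45%. This count is not separate evidence, as Ifitm3 and Ifitm2 had already stood out for the plus maze in earlier results of these data. With the first B2m probe set, the 3 genes also correlated with each other. The unadjusted p of B2m was 0.05 or more in 11 of 19 alternative fits, which leaves 2 of 5: with renewed quantile normalization, a term for rats 8 and 9, only the other 7 rats, ranks, and any single one of rats 2, 4, 5, 6, 7 and 9 left out. The eleventh, without rats 2 and 6, took Ifitm3 and Ifitm2 past it too and left 0 of 5. No probe set of the 9 genes had a negative slope past that threshold.

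**Figure D2:**
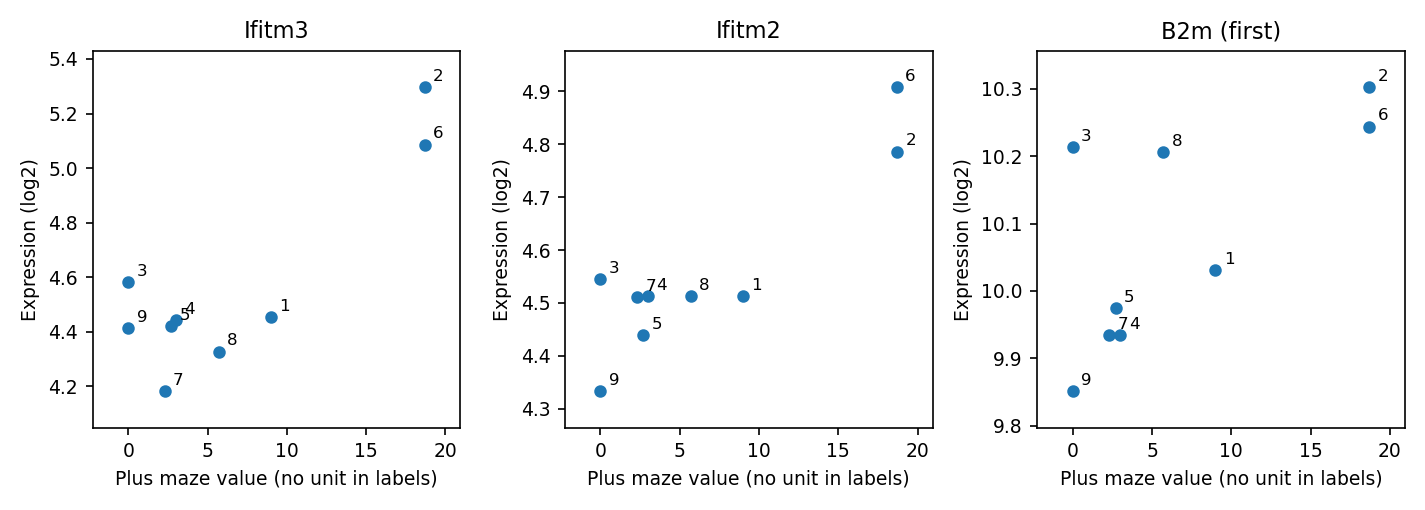
Log2 value (y axis) against the plus maze value, which has no unit in the labels (x axis), for Ifitm3, Ifitm2 and the first B2m probe set, with 1 numbered point per rat. Rats 2 and 6, both at 18.7, sit at the top right of each panel, and the other 7 rats show no common slope in Ifitm3.

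Startle, locomotion and sugar feeding gave no probe set of the 9 genes past the adjusted threshold, and none of the 5 kept had an unadjusted limma p under 0.05. For startle all 5 slopes were positive, from 0.0035 for Cd74 to 0.14 for Ifitm3, with adjusted p from 0.588 to 0.970. Over all probe sets, 0% passed for startle after adjustment, while 8.9% had a positive and 4.34% a negative slope at the unadjusted threshold. Slopes against locomotion ran from -0.092 for the second B2m probe set to 0.00081 for Cd74, and 0% of all probe sets passed, with 0.62% positive and 1.34% negative unadjusted. All 5 slopes against sugar feeding were negative, from -0.13 for Ifitm3 to -0.0021 for Cd74, and 0% of all probe sets passed, with 0.767% positive and 0.63% negative unadjusted. With 9 rats these slopes have wide intervals: that of Ifitm3 with startle ran from -0.12 to 0.40.

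Ifitm3 followed the order of startle values more closely than their size. Its r with startle was 0.382 (exact permutation p = 0.311), but rho was 0.817 (exact permutation p = 0.0108). Without rats 1 and 3, with startle values most distant from the median, r was 0.791 (exact permutation p = 0.0312). In the 7 rats other than 8 and 9, rho was 0.679 (exact permutation p = 0.110). In a limma fit of log2 values on ranks of startle, the lowest adjusted p among the 5 probe sets kept was 0.445. The slope of Ifitm3 in that fit thus did not pass over the whole table, and rho was not tested over it. Among the genes below the filter, Mx1 had a slope of 0.094 ± 0.032 (SE) against startle in a fit without the filter. Its limma p was 0.0169 unadjusted and 0.321 adjusted. With startle its r was 0.735 and rho 0.633 (exact permutation p = 0.0217 for r and 0.0760 for rho). That r was 0.070 without rats 1 and 3 and 0.853 in the 7 rats other than 8 and 9. The r of Mx1 with the 10th percentile of the array was 0.892, and the part of the array's low end in its slope was not tested.

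**Figure D3:**
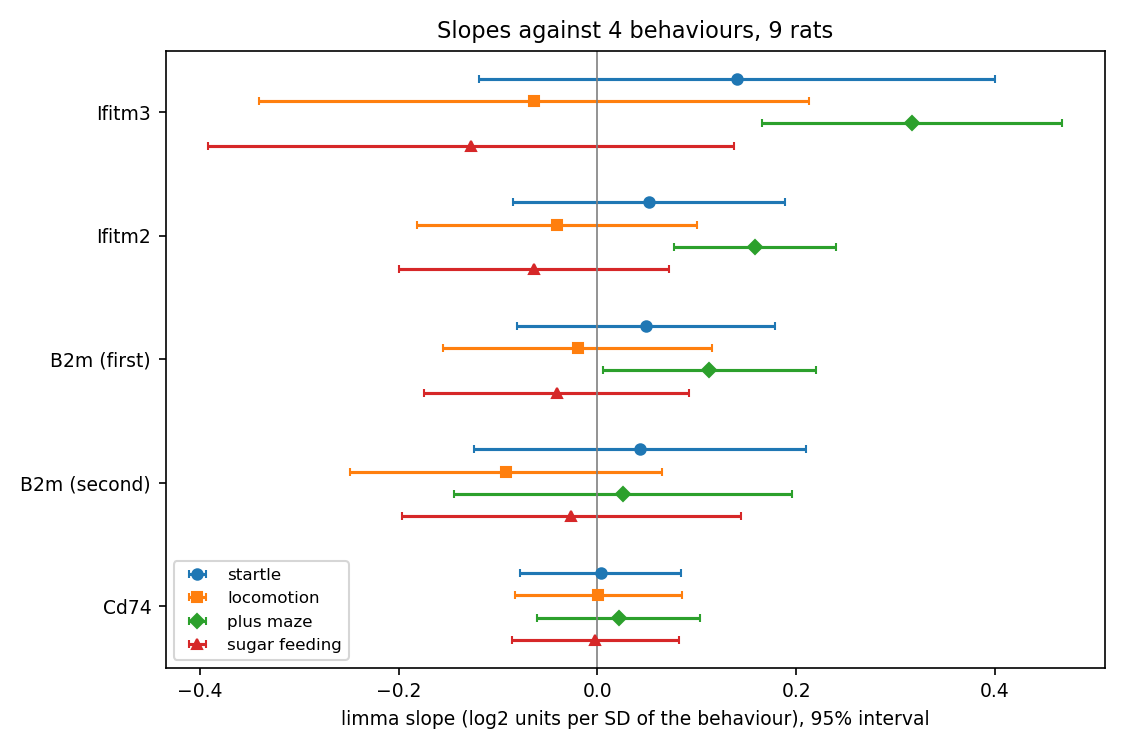
Slope in log2 units per SD of the behaviour (x axis, limma, with 95% intervals) for the 5 probe sets above the filter (y axis) and each of 4 behaviours, over 9 rats. The plus maze intervals of Ifitm3, Ifitm2 and the first B2m probe set lie above 0, and all other intervals span 0.

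Ifitm3, Ifitm2 and the first B2m probe set all had their highest values in rats 2 and 6, and Cd74 did not. For each gene the probe set with the highest mean was used, and each gene served in turn as the regressor for all other probe sets kept. Ifitm2 and Ifitm3 had r = 0.850 and rho = 0.797 (exact permutation p = 0.0172 for r and 0.0132 for rho). With Ifitm2 itself counted, 36 of 9519 probe sets (0.378%) had as high an r with Ifitm3. Ifitm3 and Ifitm2 had already stood out for the plus maze in earlier results of these data, so this share is not separate evidence. Without rats 2 and 6 the r of Ifitm2 with Ifitm3 was 0.063 (exact permutation p = 0.871), so this relation also rested on those rats. B2m and Ifitm3 had r = 0.721 and rho = 0.783 (exact permutation p = 0.0153 for r and 0.0172 for rho). With B2m itself counted, 1.90% of probe sets had as high an r with Ifitm3. Without rats 2 and 6, r was 0.332 (exact permutation p = 0.483). The second B2m probe set had r = 0.232 and rho = 0.217 with Ifitm3 (exact permutation p = 0.526 for r and 0.581 for rho).

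For B2m and Ifitm2 r was 0.777 and rho 0.898 (exact permutation p = 0.00289 for r and 0.00205 for rho), and without rats 2 and 6 r was 0.663 (exact permutation p = 0.0726). In the 7 rats other than 8 and 9, r was 0.890 for Ifitm2 with Ifitm3, 0.894 for B2m with Ifitm3 and 0.799 for B2m with Ifitm2. Cd74 and Ifitm3 had r = 0.023 and rho = -0.183 (exact permutation p = 0.958 for r and 0.644 for rho). With Ifitm2, Cd74 had r = 0.422 and rho = 0.390 (exact permutation p = 0.254 for r and 0.306 for rho), and with B2m r = 0.455 and rho = 0.25 (exact permutation p = 0.222 for r and 0.521 for rho). These r without rats 2 and 6 were -0.400 with Ifitm3, 0.678 with Ifitm2 and 0.500 with B2m (exact permutation p = 0.377, 0.0845 and 0.254), so outside those rats Cd74 and Ifitm2 had about the r of B2m and Ifitm2. None of the 6 gene pairs passed the limma threshold in both directions, with adjusted p of 0.877 or more. With Ifitm3, Ifitm2 and B2m as regressors, 0% of probe sets passed after adjustment and 3.5%, 4.32% and 3.2% had an unadjusted p under 0.05. With Cd74 as regressor 0.0105% passed, which is 1 probe set and none of these genes, and 3.4% had an unadjusted p under 0.05.

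**Figure D4:**
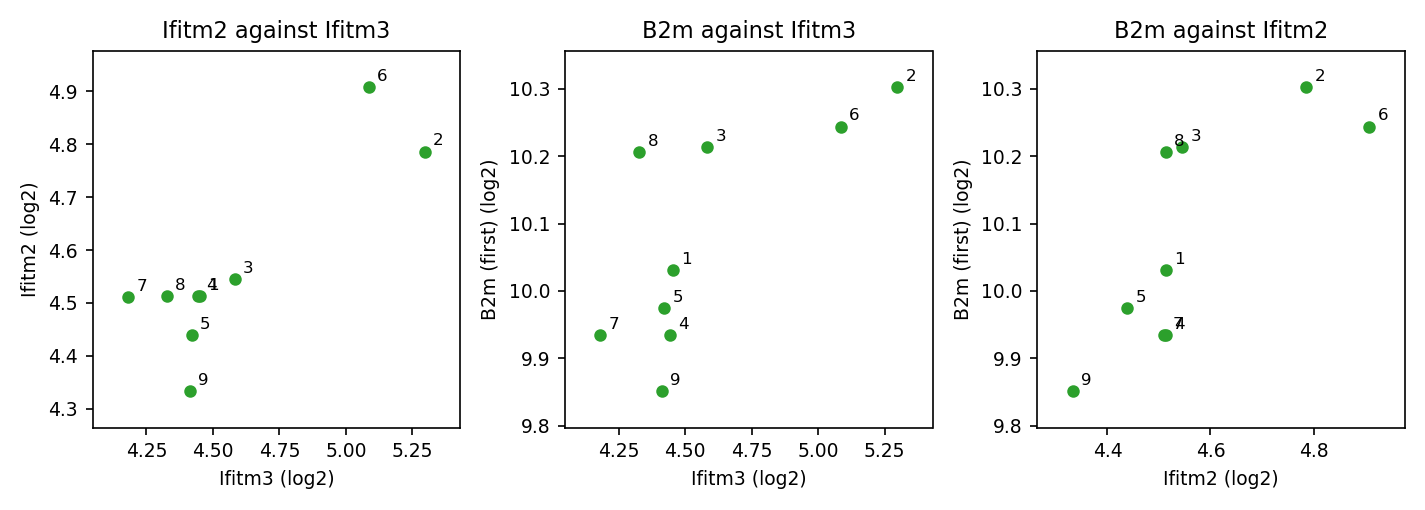
Log2 values of Ifitm2 against Ifitm3, B2m against Ifitm3 and B2m against Ifitm2 (first probe set for B2m), with 1 numbered point per rat on log2 axes. Rats 2 and 6 stand apart at the top right of the first panel, and in the third panel the other 7 are spread, with rat 9 at the lower left.

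The genes with the most similar pattern were picked by Pearson r over the 9 rats among 6766 genes. For Ifitm3 they were Znhit2 (r = 0.949), Anxa3 (r = 0.946), which codes for an annexin, and Wls (r = 0.934), which codes for a carrier of Wnt proteins. For Ifitm2 they were Imp3 (r = 0.957), Il6st (r = 0.954), the gp130 receptor chain shared by cytokines of the interleukin 6 family, and again Wls (r = 0.947). For B2m they were Agpat5 (r = 0.918), Rpl27a (r = 0.893), a ribosomal protein gene, and Ctsb (r = 0.877), which codes for the lysosomal protease cathepsin B. For Cd74 they were Ssr1 (r = 0.855), Tagln2 (r = 0.843) and Cc2d1a (r = 0.842). Without rats 2 and 6, which lie most distant from the medians of Ifitm3, Ifitm2 and B2m, r with Ifitm3 was 0.334 for Znhit2, 0.786 for Anxa3 and 0.245 for Wls. Those with Ifitm2 ran from 0.851 to 0.915 and those with B2m from 0.861 to 0.899. Without rats 5 and 9, the most distant for Cd74, r was 0.303 for Ssr1, -0.0044 for Tagln2 and 0.590 for Cc2d1a. None of these genes passed the limma test over the table.

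The rest of the interferon and antigen presentation pathway had no relation to behaviour past the adjusted threshold. Of 75 other genes on the array in 6 lists, 34 were above the filter (45.3%, against 65.2% of all 10411 genes), and 20 of the 41 below it were interferon-stimulated genes. Among the other interferon-stimulated genes only 5 of 25 were above it: Oas1a, Mx2, Ifi27, Eif2ak2 and Adar, the last an RNA-editing enzyme. Of 136 relations between these 34 genes and the 4 behaviours, 0 passed after adjustment, and 6 had an unadjusted limma p under 0.05, all with positive slopes. That is 4.41% of these relations, near the 4.75% over all 6793 genes and the same 4 behaviours. Positive and negative slopes at that threshold made up 7.79% and 4.64% of those genes for startle, and 2.80% and 0.515% for the plus maze. For locomotion they made up 0.545% and 1.37%, and for sugar feeding 0.765% and 0.589%.

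Among receptors, 3 of 6 genes on the array were above the filter. Ifngr1, the ligand-binding chain of the interferon gamma receptor, had a slope of 0.12 ± 0.041 (SE) against startle, with adjusted p = 0.359 (limma). Its r was 0.768 and rho 0.879 (exact permutation p = 0.0146 for r and 0.00322 for rho), and r was 0.857 without rats 1 and 3. In the 7 rats other than 8 and 9 the slope was 0.069 and r 0.632 (exact permutation p = 0.104). Rat 8 had both the lowest Ifngr1 value, 5.52, and the lowest startle value, 67.7. Ifngr2, the signalling partner of that chain, had a slope of 0.19 ± 0.076 (SE) against the plus maze, with adjusted p = 0.999 (limma). Its log2 values in rats 2 and 6 were 7.14 and 7.12, above 6.17 to 6.91 in the other 7. Its r was 0.662 and rho 0.624 (exact permutation p = 0.0474 for r and 0.0785 for rho), and r was 0.348 without those rats and 0.723 in the 7 rats other than 8 and 9. Of the signalling genes, 6 of 13 were above the filter and 0 had an unadjusted p under 0.05 with any behaviour.

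Of the other interferon-stimulated genes, Ifi27 had a slope of 0.16 ± 0.065 (SE) against the plus maze, with adjusted p = 0.999 (limma). It was 8.47 and 8.67 in rats 2 and 6, against 7.89 to 8.47 in the other 7, so rat 2 was above the nearest of them by less than the second decimal shows. Its r was 0.670 and rho 0.714 (exact permutation p = 0.0496 for r and 0.0375 for rho), and r was 0.415 without rats 2 and 6 and 0.734 in the 7 rats other than 8 and 9. None of the 10 class I genes above the filter, of 17 on the array, had an unadjusted p under 0.05. Psme1, an activator subunit of the proteasome, was also higher in rats 2 and 6, at 7.80 and 7.93, than in the other 7, at 7.55 to 7.76. These 3 genes, of the 34, were the only ones with rats 2 and 6 both above the rest, and over all 6789 other genes the share was 4.12%. Psmb5 and Psmb7, subunits of the standard proteasome, were both above the filter and had no unadjusted p under 0.05.

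Among class II genes, 3 had an unadjusted p under 0.05 with startle and 0 with the plus maze. Of 12 on the array, 8 were above the filter, their median slope against startle was 0.14 (0.021 over all 6793 genes), and the 3 stand against 7.79% of all genes with a positive slope at that threshold. RT1-Db1, a class II beta chain, had a slope of 0.29 ± 0.096 (SE), with adjusted p = 0.359 (limma). Its r was 0.724 and rho 0.569 (exact permutation p = 0.0253 for r and 0.115 for rho), and r was 0.223 without rats 1 and 3 and 0.861 in the 7 rats other than 8 and 9. Lgmn, a lysosomal protease, had a slope of 0.22 ± 0.089 (SE), and RT1-DMa, a chain of the peptide-loading factor DM, one of 0.18 ± 0.077 (SE), both with adjusted p = 0.362 (limma). For Lgmn r was 0.651 and rho 0.65 (exact permutation p = 0.0558 for r and 0.0666 for rho), and r was 0.723 without rats 1 and 3. Lgmn was lowest in rats 8 and 9, at 7.87 and 8.06, against 8.51 to 8.91 in the other 7, whose own slope was 0.072 with r = 0.487 (exact permutation p = 0.267). For RT1-DMa r was 0.638 and rho 0.5 (exact permutation p = 0.0591 for r and 0.178 for rho), and r was 0.325 without rats 1 and 3 and 0.717 in the 7 rats other than 8 and 9. Cd74, the partner of class II chains, had a startle slope of 0.0035. RT1 genes have close copies, and whether their probe sets separate them was not tested.

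With Ifitm3 as regressor, 0 of the 34 genes had an unadjusted limma p under 0.05. Of their slopes 25 were positive (73.5%, against 64.0% over all 6789 other genes), and their median r was 0.20, against 0.128 over those genes. Ifi30, a lysosomal thiol reductase, had the highest r of them, at 0.743, and Jak2, a kinase of the interferon gamma receptor, the lowest, at -0.395. By list, the median r ran from -0.043 for the signalling genes to 0.428 for the class II genes and 0.440 for the receptors.

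Markers of the cell types that could carry these genes were set beside them, as the mean log2 value of the markers above the filter. Meningeal and fibroblast markers, 9 of 11 above the filter, were higher in rats 2 and 6, at 5.71 and 5.62, than in the other 7, at 4.58 to 5.59. Rat 8, at 5.59, came close to rat 6. Igf2 and Col3a1 had the widest SDs of the 9, at 1.41 and 1.14, and so weigh most in this mean. Of the 9 markers, Col1a2 and Col3a1, both collagen genes, were above the rest in both rats, as were 3.53% of all probe sets kept. Both had a positive plus maze slope at an unadjusted limma p under 0.05, against 2.45% of all. The other markers of this list did neither. Of the 9 microglia markers above the filter, 1, P2ry12, was also above the rest in both rats. Of the 8 astrocyte markers above it, 1, Aqp4, also had such a slope. No other marker above the filter in any list did either. The mean of the 9 meningeal and fibroblast markers had r = 0.544 and rho = 0.35 with Ifitm3 (exact permutation p = 0.132 for r and 0.359 for rho). Without rats 2 and 6, its r with Ifitm3 was -0.335. Its r with B2m was 0.732 (exact permutation p = 0.0340, adjusted p = 0.187 over the 22 relations of 11 lists with Ifitm3 and B2m, as for each adjusted p of a marker mean), and 0.524 without rats 2 and 6. The part of these markers in the Ifitm3 and B2m values was not tested.

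Microglia markers, 9 of 14 above the filter, had a mean of 6.17 in both rats 2 and 6, inside the range of the other 7, from 5.89 to 6.48. Their mean followed B2m, with r = 0.700 at an adjusted p of 0.180 and rho = 0.867 at an adjusted p of 0.0331 (exact permutation p = 0.0219 for r and 0.00451 for rho), and r was 0.690 without rats 2 and 6. With Ifitm3 it had r = 0.507 and rho = 0.783, the last at an adjusted p of 0.0758 (exact permutation p = 0.152 for r and 0.0172 for rho). Endothelial markers, 7 of 11 above the filter, had 6.19 and 6.35 in rats 2 and 6, inside 6.03 to 6.60 in the other 7. With B2m their mean had rho = 0.833 (exact permutation p = 0.00827, adjusted p = 0.0455) and r = 0.674 (exact permutation p = 0.0246, adjusted p = 0.180), which was 0.771 without rats 2 and 6. Astrocyte markers, 8 of 8 above the filter, had rho = 0.867 with B2m (exact permutation p = 0.00451, adjusted p = 0.0331) and r = 0.736 (exact permutation p = 0.0206, adjusted p = 0.180), which was 0.792 without those rats.

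The mean of the neuron markers ran the other way, with rho = -0.9 to Ifitm3 (exact permutation p = 0.00203, adjusted p = 0.0331), though r was -0.551 (exact permutation p = 0.133) and -0.768 without rats 2 and 6. In the 7 rats other than 8 and 9, that rho was -0.857 (exact permutation p = 0.0238). Singly, 4 of the 9 markers had a positive slope with Ifitm3 and 1 had a negative slope at an unadjusted limma p under 0.05. Gad2, the glutamate decarboxylase of inhibitory neurons, had the widest SD of the 9, at 0.95. The neuron mean was 10.3 and 10.2 in rats 2 and 6, inside the range of the other 7, from 10.1 to 10.6. The perivascular macrophage markers on the array, Lyve1 and F13a1, were both below the filter, as were 7 of 9 leukocyte markers. Mural, red blood cell, oligodendrocyte, projection neuron, leukocyte and choroid plexus means had r between -0.238 and 0.0835 with Ifitm3. Their rho with Ifitm3 ran from -0.567 to 0.25, and their r with B2m from -0.203 to 0.553. Without rats 2 and 6, that r with B2m ran from -0.268 to 0.766. In the 7 rats other than 8 and 9, the red blood cell mean had rho = 0.821 with Ifitm3 (exact permutation p = 0.0341). The part of any of these markers in the values of the interferon and antigen presentation genes was not tested.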

How the data were processed

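Each array gave 1 log2 value per probe set as the authors deposited it. The submitters' processing notes name GCRMA and R 2.6.2. What else was done is not given in the sources used here. GCRMA corrects background by probe sequence and normalizes between arrays. Among the probe sets kept, 47.0% repeated a value exactly between arrays. No 2 arrays were the same (highest correlation 0.998).

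Of 15923 probe sets, 57 controls and the lowest 40% by mean were left out, keeping 9520. Symbols came from the platform annotation. limma 3.58.1 in R 4.3.3 fitted slopes with lmFit and eBayes over 9 rats (two-sided, 7 residual degrees of freedom, Benjamini-Hochberg over all probe sets kept). Exact permutation tests ran over 362880 orders of 9 rats or 5040 of 7, two-sided, in Python 3.11.15 (scipy 1.17.1, pandas 2.3.3, numpy 2.4.6, matplotlib 3.10.9). Simulated slopes were used to test the limma code. The spread between rats also holds technical differences, with 1 array each, and the number of arrays limits precision.

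The 9 genes, the lists and the tests were chosen with earlier results of these data known. Full statistics are given for relations with an unadjusted p under 0.05, for the 6 gene pairs, for the 3 most similar genes of each gene above the filter, and for up to 4 genes per list and behaviour. Ifitm3 against startle, Psme1, Ifi30, Jak2, Col1a2, Col3a1, P2ry12 and Aqp4 were chosen after their values were seen. Alternatives were no filter, a stricter filter, renewed quantile normalization, trend with robust moderation, array quality weights, a term for or omission of rats 8 and 9, ranks, omission of the 2 most extreme rats, a single probe set for each gene, and each rat left out in turn.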

Additional observations from a re-analysis of the deposited data

How the results depend on the processing

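No probe set of the 9 genes passed the adjusted threshold for any behaviour in any of 76 alternative fits, and the lowest adjusted limma p was 0.0902, for Ifitm3 and Ifitm2 against the plus maze with array quality weights. Of the 252 alternative values in all, 235 kept their side of the threshold and, for slopes and correlations, their direction. No main limma fit passed the adjusted threshold, so for counts and slopes a kept side says little about stability. A slope that shrank was still counted as kept. That of the first B2m probe set against the plus maze went from 0.11 to 0.030 without rats 2 and 6. The count of gene pairs called, 0 of 6, became 1 of 6 with array quality weights (Ifitm2 with Ifitm3) and 4 of 36 with no filter (Irf1 with Psmb8, Irf1 with Tap1, Mx1 with Tap1 and Psmb8 with Tap1, all among genes that follow the low end of the array). With the weights, the slope of Ifitm2 on Ifitm3 was 0.21 (limma, adjusted p = 0.0183), that of B2m on Ifitm3 0.14 (limma, adjusted p = 0.0289) and that of B2m on Ifitm2 0.10 (limma, adjusted p = 0.0103). The share of all probe sets that passed with the weights or with no filter is not given here. These calls are therefore not read as particular to these genes. In some fits these weights stopped short of their convergence tolerance, and the cause was not tested. The Ifitm3 slope against the plus maze turned to -0.017, and its r to -0.136, without rats 2 and 6, which hold the top plus maze values. It was 0.20 without rat 2 and 0.27 without rat 6. Over all alternatives the Ifitm2 slope ran from 0.027 to 0.19 and that of the first B2m probe set from 0.030 to 0.15. For the correlations with the plus maze, rho and the values without rats 2 and 6 missed 0.05 for all 3 genes, as did r of B2m in the 7 rats other than 8 and 9. The slope of Cd74 on Ifitm3, 0.0018, turned to -0.0042 with ranks and ran from -0.010 to 0.019 with each rat left out in turn. No paired analysis was possible because the rats form 1 group. Signal near the low end of the arrays limits what can be said of Irf1, Mx1, Psmb8, Psmb9 and Tap1.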

Other observations

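In the 7 rats other than 8 and 9, other genes had the pattern most similar to each gene, by Pearson r among 6766 genes. For Ifitm3 they were Tmem64, Cyp26b1, an enzyme that breaks down retinoic acid, and Fmod, an extracellular matrix proteoglycan, with r of 0.973, 0.969 and 0.968. Over all 9 rats their r with Ifitm3 was 0.834, 0.511 and 0.861. For Ifitm2 they were Mylk, the myosin light chain kinase, Rcl1 and Rbm24, with r of 0.987, 0.980 and 0.975 in the 7 rats, and of 0.672, 0.295 and 0.914 over 9 rats. For B2m they were Smu1, Nek7, a kinase of the inflammasome, and Tspan12, with r of 0.990, 0.969 and 0.965 in the 7 rats, and of 0.861, 0.760 and 0.179 over 9 rats. For Cd74 they were Adgrl3, St3gal4 and Glrb, the beta subunit of the glycine receptor, with r of 0.967, 0.957 and 0.937 in the 7 rats, and of 0.503, 0.459 and 0.735 over 9 rats. None of these genes passed the limma test over the table in the 7 rats, and none was among the 3 most similar over all 9 rats.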
